A study of Mus musculus with 5 samples.

Results

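The retinal mGluR6-TRPM1 cascade was examined as 9 genes, Grm6, Trpm1, Nyx, Gpr179, Lrit3, Gnao1, Rgs7, Rgs11 and Gng13, chosen by gene symbol among 33636 genes of an RNA sequencing count table. Form-deprivation myopia (FDM) had been induced in 3 male wild-type C57BL6/J mice with a diffuser goggle over the right eye for 2 weeks from postnatal day (P) 28, and whole retinas were collected at P42. The controls were the uncovered left eyes of the same animals, so they do not stand for untreated mice. The table held 2 FDM and 3 control libraries, since the authors had removed 1 FDM library for its read duplication level. Libraries are named here by the number in the table's headers (FDM 1, FDM 3 and Control 1 to 3). Eyes with the same header number were taken as eyes of the same mouse, which gave 2 complete eye pairs, but the label of FDM 3 carries the number 2, so its pairing with Control 3 rests on the header and not on the label.

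The ON bipolar cell inverts the photoreceptor signal. Glutamate released in darkness binds mGluR6, whose G protein keeps the cation channel TRPM1 closed, and the fall of glutamate in light lets the channel open. Loss of several of these proteins causes complete congenital stationary night blindness, in which myopia is common.

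Library totals ran from 40599047 to 56534931 counts, and 3 counts corresponded to 0.0531 to 0.0739 CPM (counts scaled to a common library total with edgeR's TMM factors). Refractive error in the labels was 0.976 and 0.2745 D in the FDM eyes and 2.4455, 3.1505 and 2.465 D in the control eyes. All 9 cascade genes passed the filter on low counts, as did 17432 genes in all, and their counts lay between 498 and 23988 per library. Counting error alone was therefore at most 4.48% of a value. Summed markers of all bipolar cells ran from 760 to 813 CPM and those of rod bipolar cells from 642 to 683 CPM, so bipolar RNA was present at a similar level in each library. Markers of 2 neighbouring tissues did not behave this way. The summed level of 12 retinal pigment epithelium (RPE) genes was 83.0 and 72.6 CPM in FDM 1 and 3, and 87.6, 294 and 285 CPM in Control 1, 2 and 3. The summed level of 15 lens genes was 2362 CPM in FDM 3 and between 3.48 and 34.3 CPM in the other libraries.

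The promoter windows of Trpm1 are shown because this gene is also known from pigment cells, and the gene-level counts do not separate its starts. RefSeq windows of 300 bases (250 before to 50 after a start, GRCm38.p6) matched 8 of the 9 genes, in 10 windows. They were searched on both strands for TAATCC (reverse complement GGATTA), a core bound by the photoreceptor and bipolar homeodomain factors CRX and OTX2, and for CATGTG (reverse complement CACATG), a core bound by the pigment cell factor MITF. The motifs do not overlap each other in these windows, and capitals mark each match. The first window is chr7:64153585-64153884 and the second chr7:64185209-64185508, both on the plus strand.
Trpm1 first start: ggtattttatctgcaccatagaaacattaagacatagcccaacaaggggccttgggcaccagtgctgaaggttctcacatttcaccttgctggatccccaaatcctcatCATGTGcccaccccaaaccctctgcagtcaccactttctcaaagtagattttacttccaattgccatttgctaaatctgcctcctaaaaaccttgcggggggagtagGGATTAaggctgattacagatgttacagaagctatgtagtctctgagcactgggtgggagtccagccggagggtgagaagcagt
Trpm1 second start: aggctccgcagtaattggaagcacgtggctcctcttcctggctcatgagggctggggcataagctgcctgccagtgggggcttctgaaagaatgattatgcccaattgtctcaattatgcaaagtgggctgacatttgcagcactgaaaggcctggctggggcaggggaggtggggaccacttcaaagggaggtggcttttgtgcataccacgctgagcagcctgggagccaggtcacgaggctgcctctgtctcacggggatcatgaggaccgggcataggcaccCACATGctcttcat
The first window held both cores and the second held the CATGTG core alone. TAATCC or its complement occurred in 1 of the 10 windows and in 7.06% of all 32817 windows. CATGTG or its complement occurred in 3 of the 10 windows, which belonged to Trpm1 and Gnao1, and in 14.2% of all windows. These matches describe the letters and are not evidence of binding.

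For none of the 9 cascade genes did a difference between FDM and control retinas pass the test. With edgeR's quasi-likelihood test, 0 of 9 had an unadjusted p under 0.05, against 1.61% of all genes tested, and DESeq2 and limma also called 0 of 9, against 0.987% and 1.72% of all genes. Each of the 9 had an edgeR adjusted p of 0.99999. Since so few genes passed in all, the count of 0 is near this background, and the intervals carry more information. The edgeR fit did not use the eye pairs. It called 281 genes, where 872 would be expected if none differed, and the intervals come from this same fit. Every 95% interval lay between -0.45 and 0.42 on the log2 scale, inside the bounds of a 1.41-fold change in either direction. Leaving out 1 library took an interval past that bound for Grm6, Nyx, Gpr179, Lrit3 and Rgs11, as far as -0.61 for Nyx without Control 3 and 0.61 for Gpr179 without FDM 3, and a GC correction did so for Nyx (-0.53). The fold changes had a median of 0.04 (log2) beside -0.01 over all genes, with 5 above and 4 below 0. These p-values measure only the spread between the 5 libraries. In whole retina, fewer cells of a type and less RNA per cell cannot be told apart.

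**Figure D1:**
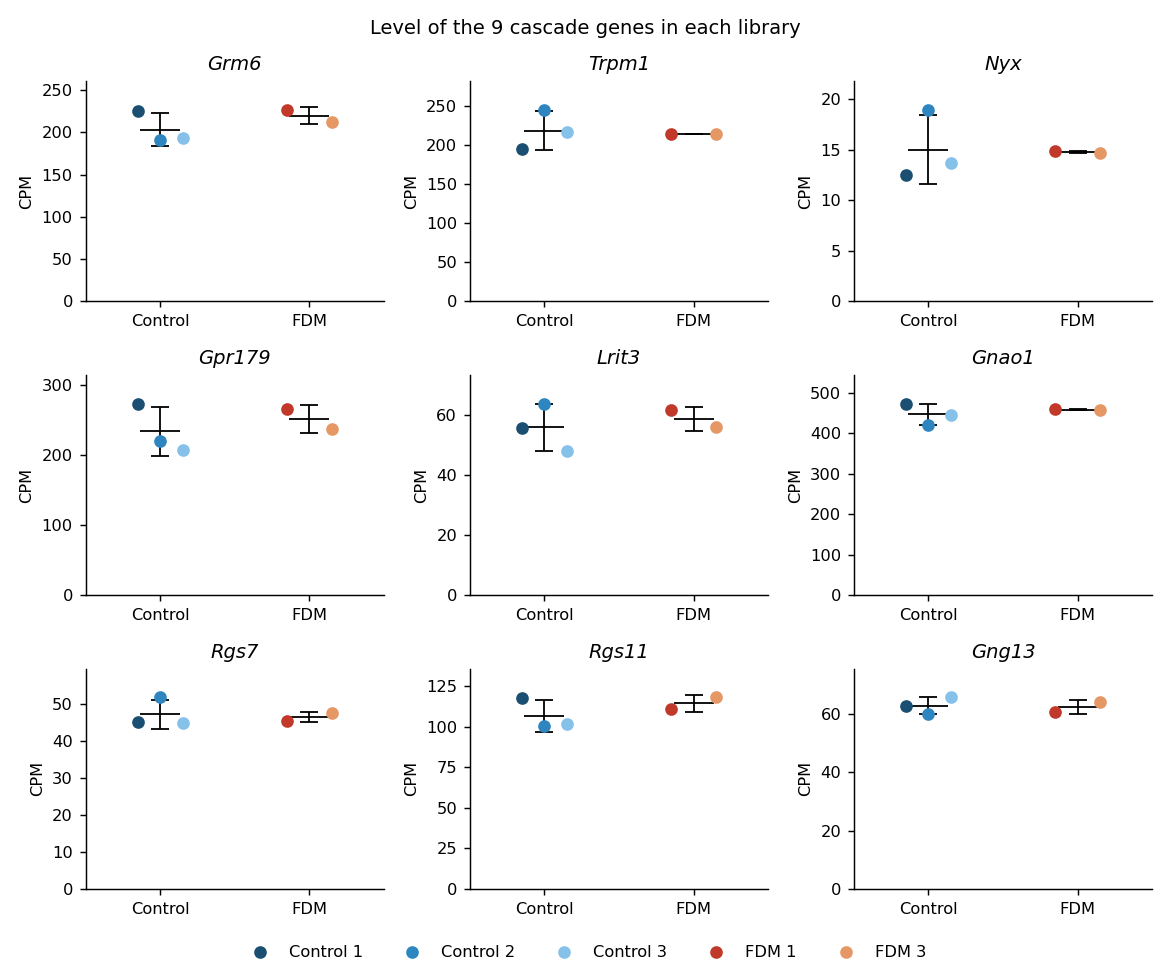
CPM of each of the 9 cascade genes in the 3 control and 2 FDM libraries, with the mean and SD of each group and a vertical axis from 0. In no gene did both FDM libraries lie outside the range of the controls.

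Grm6 encodes mGluR6, the glutamate receptor of the ON bipolar dendrite (chromosome 11, 50850685 to 50866208, plus strand, GRCm38). Its level was 227 and 212 CPM in FDM 1 and 3, and 225, 190 and 194 CPM in Control 1, 2 and 3. FDM 1 was the highest library, by a small margin over Control 1 of the same mouse, and the groups overlapped. The log2 fold change was 0.11 (SE 0.10, 95% interval -0.13 to 0.35).

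Trpm1 encodes the cation channel that the cascade closes (chromosome 7, 64153835 to 64269775, plus strand). Its level was 214 and 213 CPM in FDM 1 and 3, and 194, 245 and 216 CPM in Control 1, 2 and 3. The FDM libraries were nearly equal and sat inside the wider control range. The log2 fold change was -0.03 (SE 0.11, 95% interval -0.29 to 0.23). Trpm1 was lowest in Control 1 and highest in Control 2, where the RPE sum was 87.6 and 294 CPM, but it was alike in FDM 1 and Control 3, where that sum was 83.0 and 285 CPM. The Trpm1 to Grm6 count ratio was 1.286 and 1.115 in Control 2 and 3, where the RPE sum was high. It was 0.946, 1.005 and 0.862 in FDM 1, FDM 3 and Control 1, where that sum was low. The part of RPE transcripts in the Trpm1 level was not tested.

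**Figure D2:**
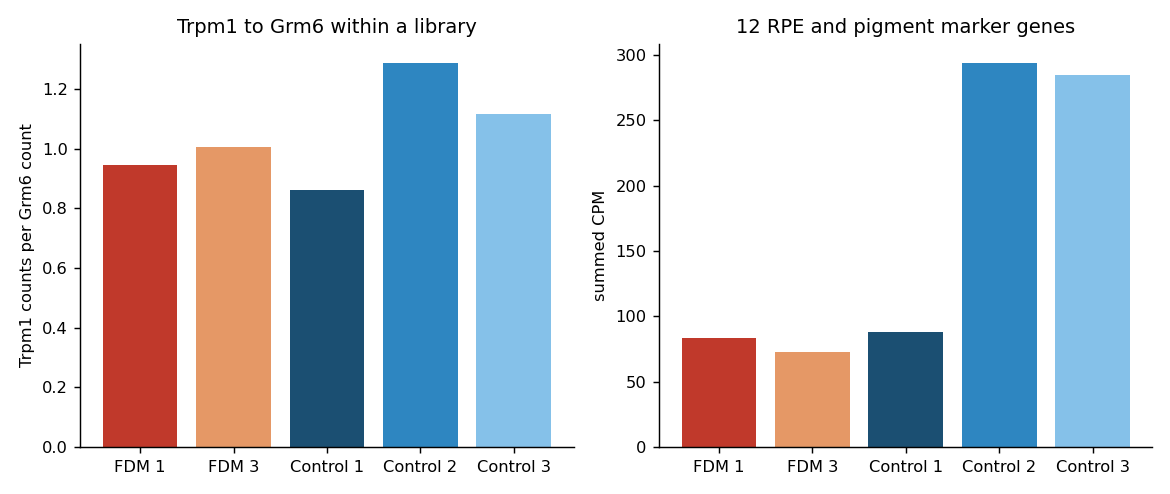
Left, Trpm1 counts per Grm6 count in each of the 5 libraries. Right, summed level of the 12 RPE markers (CPM) in the same libraries. FDM 1 and Control 3 had ratios of 0.946 and 1.115 with RPE sums of 83.0 and 285 CPM.

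Nyx and Lrit3 encode leucine-rich repeat proteins that hold TRPM1 at the dendritic tip. Nyx (chromosome X, 13466110 to 13489313, plus strand) was at 14.8 and 14.7 CPM in FDM 1 and 3, and at 12.5, 19.0 and 13.6 CPM in Control 1, 2 and 3. Both FDM libraries fell between Control 3 and Control 2. Its log2 fold change of -0.03 had the widest interval of the 9 (-0.45 to 0.39). Lrit3 (chromosome 3, 129787881 to 129804030, minus strand) was at 61.7 and 56.1 CPM in FDM 1 and 3, and at 55.9, 63.9 and 48.2 CPM in Control 1, 2 and 3. Again Control 2 was highest and the groups overlapped. The log2 fold change was 0.07 (SE 0.13, 95% interval -0.23 to 0.37).

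Gpr179 encodes an orphan receptor that anchors the RGS proteins near mGluR6 (chromosome 11, 97332109 to 97352077, minus strand). It was at 266 and 237 CPM in FDM 1 and 3, and at 273, 220 and 207 CPM in Control 1, 2 and 3. In the first mouse both eyes were high and close to each other. The log2 fold change was 0.11 (SE 0.13, 95% interval -0.20 to 0.42). Without Control 1 it was 0.24 and passed the unadjusted threshold of edgeR, as did 5.45% of all genes, with an adjusted p = 0.829.

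Gnao1 and Gng13 encode the alpha and gamma subunits of the G protein, and Gnao1 is used by many other neurons as well. Gnao1 (chromosome 8, 93809966 to 93969388, plus strand) was at 460 and 457 CPM in FDM 1 and 3, and at 473, 421 and 446 CPM in Control 1, 2 and 3. Gng13 (chromosome 17, 25717171 to 25719406, plus strand) was at 60.6 and 63.9 CPM in FDM 1 and 3, and at 62.8, 59.8 and 65.6 CPM in Control 1, 2 and 3. For both genes the FDM libraries lay within the control range. The log2 fold changes were 0.04 (95% interval -0.16 to 0.24) for Gnao1 and -0.01 (95% interval -0.21 to 0.19) for Gng13. Gng13 shares 399 bases of exon with Chtf18 on the opposite strand, which had 793 to 1226 counts. The kit did not mark strand, so reads there cannot be told apart. The same limit holds for Gnao1, which shares 284 bases of exon with 4930488L21Rik on the opposite strand. It also holds for Grm6 (599 bases with Gm12660) and Trpm1 (12 bases with Gm44722). No counts were listed for these neighbours of Gnao1, Grm6 and Trpm1.

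Rgs7 and Rgs11 encode the GTPase-activating proteins that switch the G protein off. Rgs7 (chromosome 1, 175059087 to 175492500, minus strand) was at 45.5 and 47.4 CPM in FDM 1 and 3, and at 45.1, 51.8 and 44.9 CPM in Control 1, 2 and 3. Rgs11 (chromosome 17, 26202951 to 26211324, plus strand) was at 111 and 118 CPM in FDM 1 and 3, and at 118, 100 and 102 CPM in Control 1, 2 and 3. Control 2 was the highest library for Rgs7 and the lowest for Rgs11. The log2 fold changes were -0.02 (95% interval -0.25 to 0.20) for Rgs7 and 0.10 (95% interval -0.13 to 0.34) for Rgs11. With the authors' own normalisation factors the values were -0.13 for Rgs7 and 0.03 for Rgs11, and neither was called. Rgs11 shares 138 bases of exon with Arhgdig on the opposite strand, which had 239 to 300 counts.

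**Figure D3:**
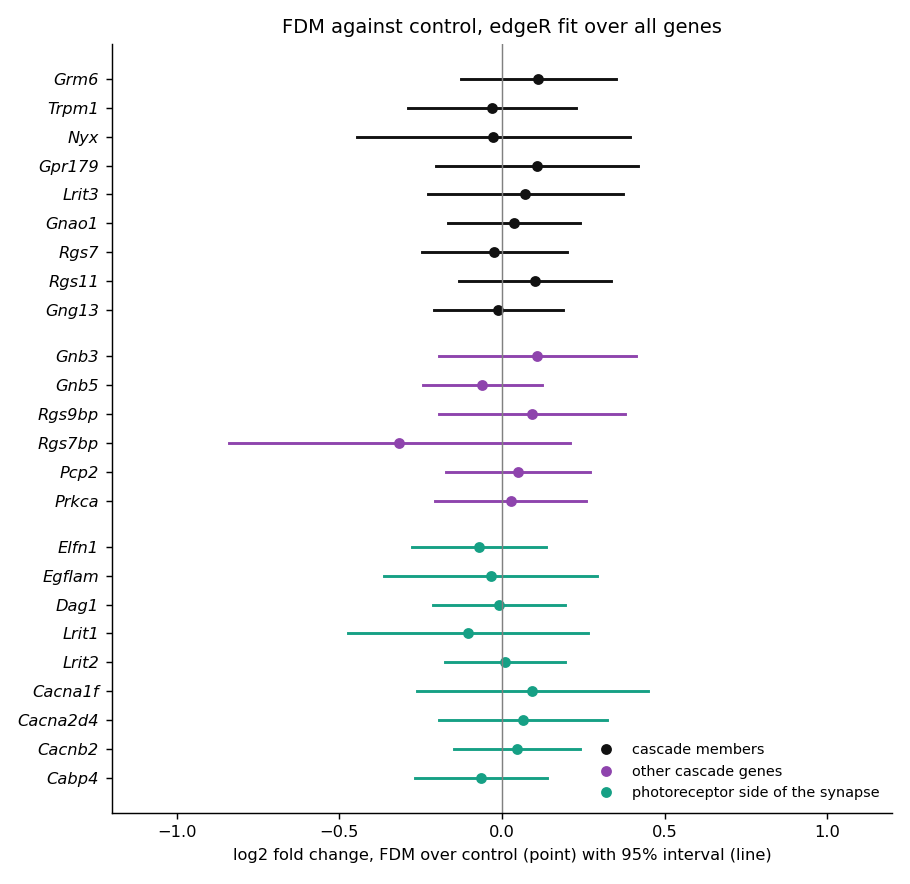
Log2 fold change of FDM over control for the 9 cascade genes and their fixed partner genes, with 95% intervals from edgeR. Every interval of the 9 crosses 0 and lies between -0.45 and 0.42.

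Both FDM libraries lay within the control range for 7 of the 9 genes, as they did for 56.3% of all genes tested, and the exceptions were Grm6 and Rgs11. Both lay outside it for 0 of 9, against 10.6% of all genes. Per kilobase of the longest coding transcript, mean levels ran from 87.0 CPM for Gng13 and 81.7 CPM for Gnao1 through 48.4 CPM for Grm6 and 37.9 CPM for Trpm1 to 2.88 CPM for Nyx. Gng13 and Gnao1 overlapped in range (83.2 to 91.3 and 76.1 to 85.7 CPM per kilobase), while Nyx, at 2.41 to 3.66, was below every other member in every library. The order depended on the length used: per kilobase of merged exons the means were 80.9 CPM for Gng13, 40.8 for Gnao1, 38.7 for Grm6, 14.7 for Trpm1 and 2.88 for Nyx. The Rgs11 to Grm6 count ratio was 0.488 and 0.556 in FDM 1 and 3 and 0.522, 0.526 and 0.526 in the controls. The Trpm1 to Grm6 ratio was less even, at 0.946 and 1.005 in FDM and 0.862, 1.286 and 1.115 in the controls.

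Within the 2 eye pairs, differences were small, and Trpm1, Gpr179, Gnao1 and Rgs11 differed in sign between the pairs. In mouse 1, 5 of 9 genes were above 0, and in mouse 3, 7 of 9. The median log2 difference was 0.01 in mouse 1 and 0.11 in mouse 3, beside -0.02 and -0.001 over all genes. The log2 difference of FDM over the fellow eye was 0.25 and 0.11 for Nyx, and 0.14 and 0.22 for Lrit3. It was 0.01 and 0.13 for Grm6, and 0.01 and 0.08 for Rgs7. These 4 genes were above 0 in both pairs, as were 24.7% of all genes. Gng13, at -0.05 and -0.04, was the 1 member below 0 in both, as were 30.4% of all genes. With the mouse as a block, edgeR called 2 of 9 at an unadjusted p under 0.05, against 7.23% of all genes. They were Lrit3 and Nyx, both with a log2 fold change of 0.18, with adjusted p = 0.622 and adjusted p = 0.683. In that fit 1 residual degree of freedom remained. With FDM 3 paired by its label number instead, Nyx was at -0.06 and Lrit3 at -0.02, and neither was called.

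**Figure D4:**
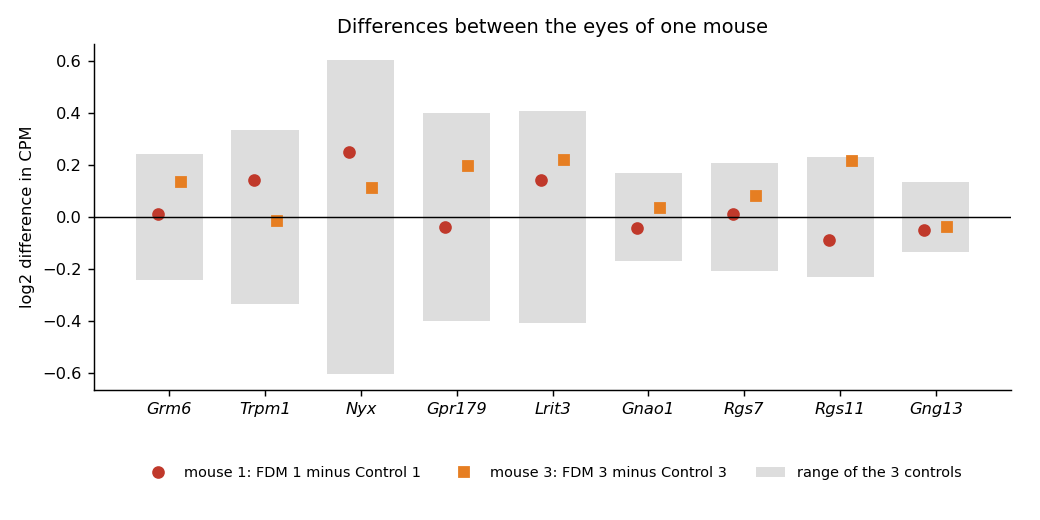
Log2 difference between the FDM eye and the fellow eye for each cascade gene in the 2 complete pairs; the grey bar spans plus and minus the range of the 3 controls. Nyx (0.25 and 0.11) and Lrit3 (0.14 and 0.22) were above 0 in both pairs.

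Much of the spread among the controls lay between Control 1 and Control 2. Control 2 was the highest library for Trpm1, Nyx, Lrit3 and Rgs7, and the lowest for Grm6, Gnao1, Rgs11 and Gng13. The 4 genes in which it was highest had transcripts of 47.6 to 53.8% GC, and the 4 in which it was lowest had 54.8 to 58.7% GC. Over 12044 genes above 5 CPM, in 5 bins of equal size, the median log2 deviation of Control 2 went from 0.20 in the bin of lowest GC to -0.15 in that of highest GC, and that of Control 1 from -0.11 to 0.10. After each library's GC trend was removed, the log2 difference of Control 1 over Control 2 went from 0.24 to 0.07 for Grm6 and from 0.23 to 0.02 for Rgs11, but from -0.33 to -0.38 for Trpm1 and from -0.60 to -0.75 for Nyx. The control range became smaller for 5 of the 9, and 0 of 9 were called, against 1.86% of all genes. With the mouse as a block as well, edgeR called 4 of 9 (Grm6, Nyx, Gpr179 and Lrit3, all higher in FDM), against 7.55% of all genes, and the lowest adjusted p of any member under any alternative was 0.460. With the label's number as the block, 0 of 9 were called, against 2.52%. The GC correction was chosen after seeing the data.

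**Figure D5:**
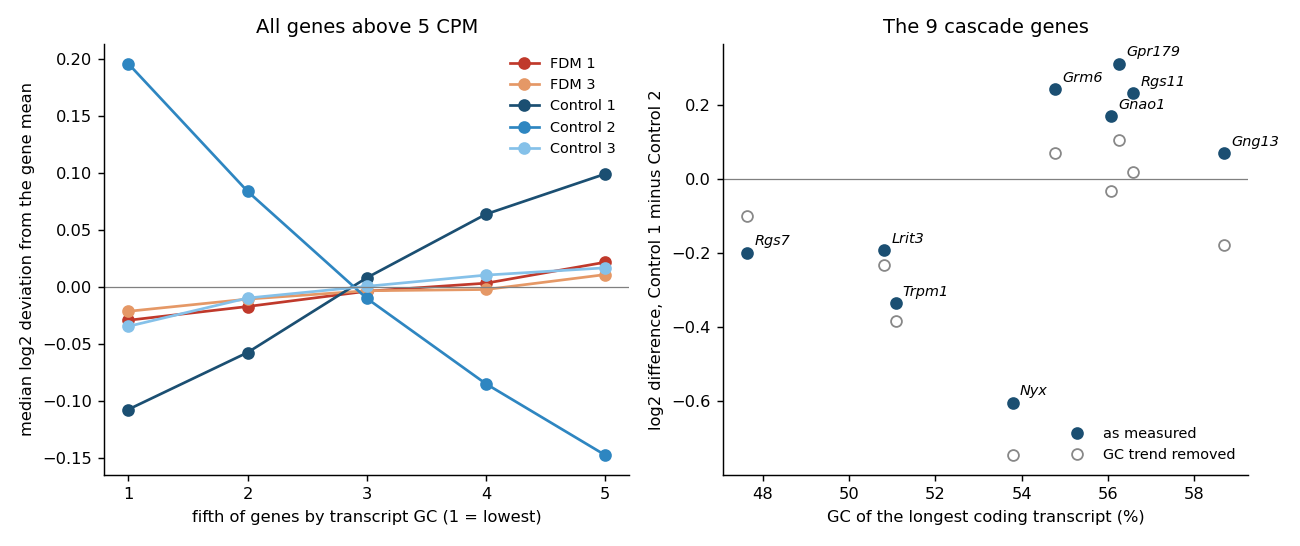
Left, median log2 deviation of each library from the gene mean in 5 equal bins of 12044 genes by transcript GC, where Control 2 ran from 0.20 to -0.15 and Control 1 from -0.11 to 0.10. Right, log2 difference of Control 1 over Control 2 for each cascade gene against its transcript GC (percent), as measured (filled) and with the GC trend removed (open), where Nyx went from -0.60 to -0.75 and Rgs11 from 0.23 to 0.02.

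The partners of the cascade did not pass the test either. Of 6 genes whose products act with it in the ON bipolar cell, edgeR called 0 at an unadjusted p under 0.05, against 1.61% of all genes. For so few genes this count is near that share. Their intervals lay between -0.84 and 0.41. Gnb3, the G protein beta subunit, had a log2 fold change of 0.11, Gnb5, the RGS-bound beta subunit, -0.06, and Rgs9bp, an RGS anchor, 0.09. Rgs7bp, another RGS anchor, had -0.32, and Pcp2 and Prkca, markers of rod bipolar cells, had 0.05 and 0.03. Rgs7bp was at 26.8 and 28.6 CPM in FDM 1 and 3, and at 26.3, 46.5 and 30.6 CPM in Control 1, 2 and 3, so Control 2 alone stood apart. Without Control 1 its value was -0.47, which passed the unadjusted threshold (edgeR adjusted p = 0.829), as did 5.45% of all genes. In the fit blocked by mouse Rgs7bp stood at -0.04 and was not called. Blocked by label number it stood at -0.34 and passed the unadjusted threshold (edgeR adjusted p = 0.99997), as did 2.52% of all genes. With the mouse as a block, Rgs9bp had 0.20 and passed that threshold (edgeR adjusted p = 0.416), as did 7.23% of all genes. Without Control 2, Rgs9bp had 0.21 and was among 535 genes past the unadjusted threshold (edgeR adjusted p = 0.998). Which cells gave the RNA of these partners cannot be told in whole retina.

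Of 9 partners across the synapse, in the photoreceptor terminal and cleft, 0 were called, against 1.61% of all genes. Elfn1, which binds mGluR6 from the photoreceptor side, had a log2 fold change of -0.07, and Egflam and Dag1, the pikachurin and dystroglycan of the cleft, had -0.04 and -0.01. Lrit1 and Lrit2, relatives of Lrit3, had -0.10 and 0.01. The calcium channel genes of the terminal, Cacna1f, Cacna2d4, Cacnb2 and their modulator Cabp4, had 0.09, 0.06, 0.05 and -0.07. With the mouse as a block Egflam had -0.16 (edgeR adjusted p = 0.608), and without Control 1 Cacna1f had 0.25 (edgeR adjusted p = 0.829). Both were past the unadjusted threshold, which 7.23% and 5.45% of all genes passed in these fits.

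Among 10 other night blindness genes, 1 was called, where 1.61% of all genes were. Rdh5, a retinoid dehydrogenase of the RPE, had a log2 fold change of -1.06 (95% interval -1.85 to -0.28, edgeR adjusted p = 0.99999), with 451 and 412 counts in FDM 1 and 3 and 433, 1401 and 1135 counts in Control 1, 2 and 3. Control 1 was as low as the FDM libraries, as it was for the RPE sum. Rdh5 is itself 1 of the 12 genes in that sum, so the 2 are not separate observations. Of these 12 genes 7 were called, all lower in FDM. In the fit blocked by mouse, 9 of the 12 RPE genes passed the unadjusted threshold, as did 3 of the 10 night blindness genes. The latter were Rdh5 and the rod genes Sag and Gnat1. All were lower in FDM, and 7.23% of all genes passed in that fit. Of the 54 genes in the lists compared, those most like Grm6 across the 5 libraries were Cacna2d4, Vsx1 and Rgs11, with root mean square differences of log2 deviations of 0.0293, 0.0571 and 0.0597.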

How the data were processed

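Whole-retina RNA was sequenced in 2 FDM and 3 control eyes. Per the submitters' processing notes, the authors used Trimmomatic 0.39, Salmon 1.10.1 and R 4.3.1. They deposited estimated counts per gene, which were rounded to whole numbers here, and a table of normalised counts, whose signal the authors had scaled with factors that differ between genes. The kit did not mark strand. The header number of 1 FDM library is 3 where its label has 2.

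FDM was compared with control in R 4.3.3 by edgeR 4.0.16 (quasi-likelihood test, TMM, Benjamini-Hochberg adjustment) on genes with over 10 counts in at least 2 libraries. The alternatives were DESeq2 1.42.0, limma 3.58.1 (on the normalised signal, in log2 with 1 or 0.1 added), other scalings and filters, both replicate blocks and leaving out each library. A GC correction (lowess, span 0.3, genes above 5 CPM) was added after seeing the data. The fit was tested on simulated data. The controls were contralateral eyes, and eyes with the same header number were taken to be from the same mouse. Deviations from the group means correlated across genes at 0.252 for FDM 1 with Control 1, 0.134 for FDM 3 with Control 3 and 0.143 for FDM 3 with Control 2. With 2 FDM libraries their deviations mirror each other, so these values are not separate checks of each pair and do not settle which control FDM 3 belongs to. The lowest chi-square per degree of freedom between any 2 libraries was 11.95, so none was a repeat.

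Annotation was GENCODE M21 (GRCm38), which held 33586 of 33636 identifiers. Named genes were the 9 members, all partner genes, any other night blindness gene or close relative with an unadjusted p under 0.05, and the 3 list genes most like Grm6. The members and lists were chosen with earlier results of these data known. Floors and counting errors cover counting error only.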

Additional observations from a re-analysis of the deposited data

How the results depend on the processing

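Over 17 alternatives, 129 of 153 gene comparisons kept their direction and side of the threshold. A further 19 changed sign and 5 newly passed the threshold with their sign kept. With the sign changes of Nyx that also passed, 7 comparisons were called. The lowest adjusted p of any member was 0.46 (edgeR). With the mouse as a replicate block, 2 members (Lrit3 and Nyx), 1 cascade partner and 1 partner across the synapse were called among 1261 genes, and values changed sign for Trpm1 (0.0626), Nyx (0.18), Gnao1 (-0.0036) and Rgs7 (0.0470). The block changed no other call among the members and both partner lists. With the label's number as block, 0 members and 1 cascade partner (Rgs7bp) were called among 439 genes, with Lrit3 at -0.0245 and Gng13 at 0.0223. With the block and the GC correction together, chosen after seeing the data, 4 members were called against 7.55% of all genes: Grm6 0.11, Nyx 0.21, Gpr179 0.12 and Lrit3 0.19. The members' median was then 0.10, with 1 cascade partner and 1 partner across the synapse called among 1316 genes, Trpm1 at 0.0780 and Rgs7 at 0.0311. DESeq2 called 172 genes and no count filter gave 498. Nyx was 0.00027 and 0.00031 by limma with a pseudocount of 1 and 0.1, and Gng13 was 0.00036 on library totals alone. Leaving out each library in turn gave 146 to 946 genes, 0 to 1 members and 0 to 1 partners of either kind called, with a members' median of 0.02 to 0.07. The ranges were 0.06 to 0.19 for Grm6, -0.106 to 0.0708 for Trpm1, -0.14 to 0.19 for Nyx, 0.0233 to 0.238 for Gpr179, -0.0204 to 0.189 for Lrit3, 0.01 to 0.08 for Gnao1, -0.0551 to 0.0576 for Rgs7, 0.05 to 0.18 for Rgs11 and -0.0503 to 0.0284 for Gng13. Where 1 FDM library remained it was assumed to vary like the others. The cause of these changes was not tested. Either block left 1 residual degree of freedom. Without a block, edgeR's fitted variation between libraries was 8.54 to 15.6% for the members, beside a counting error of at most 4.48%.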

Other observations

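Close relatives of the cascade genes and markers of the other retinal cell types were also measured. The 15 relatives included the group III glutamate receptors Grm4, Grm7 and Grm8 and the RGS genes Rgs6 and Rgs9. Without a block edgeR called 0 of 15 at an unadjusted p under 0.05, against 1.61% of all genes. Their median log2 fold change was 0.00. Summed markers of OFF bipolar cells ran from 201 to 214 CPM, those of rods from 49336 to 62318 CPM and those of cones from 1187 to 1343 CPM. Summed horizontal cell markers ran from 79.6 to 89.8 CPM, amacrine from 1078 to 1163, ganglion cell from 686 to 833 and Müller glia from 3407 to 3747. In the fit without a block, 0 genes of these lists were called, against 1.61% of all genes. Muscle genes summed to 59.5 CPM in Control 3 and to between 9.24 and 10.7 CPM in the other libraries, and blood genes to between 33.0 and 47.6 CPM, again with 0 called in that fit. With the mouse as a replicate block, 3 relatives passed the unadjusted threshold, Rgs9 at 0.31, Gngt1 at -0.12 and Gngt2 at -0.15 (log2). So did 2 of 6 rod, 1 of 3 horizontal cell, 1 of 4 Müller glia, 4 of 4 muscle and 1 of 5 blood genes tested, where 7.23% of all genes did. After adjustment in that fit 1 of the muscle genes passed, as did 10 of the 15 lens genes and 1 of the 12 RPE genes. The list of genes shared by ON bipolar cells is not described apart, since it holds Grm6, Trpm1 and Nyx. Of the 15 lens genes, 13 were called without the block and 15 with it, against 1.61% and 7.23% of all genes. All were higher in FDM, with the high level in FDM 3 alone.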
